A study of Mus musculus with 40 samples.

Results

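Sox10, Olig1, Cpe, Jam3, Maged1, Mbp, Mag, Cnp and Cldn11 are 9 transcripts that oligodendrocyte-lineage or tumour cells are known to make. Their levels were measured here in CD11b+ cells, the myeloid cells sorted from glioma-bearing mouse brain. Which cells made each transcript in these samples was not tested. The members are 9 of the 54513 rows of each of 3 deposited tables, and all 9 were found in each table. They were chosen by name because transcripts of this kind were higher with 7aaRGD than with vehicle in GL261 gliomas at 21 days post-implantation (DPI). That contrast selected them, so it is given below as a description with no test, and no numeric threshold was part of the choice.

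The labels list 40 samples of RNA from FACS-sorted CD11b+ cells, and 35 of them were analysed here. Mice were males of 10 to 12 weeks per the methods of the study. In the GL261 experiment at 21 DPI, C57BL/6 mice carried GL261 tdTomato+luc+ cells, a mouse glioma line, and received vehicle (water), 7aaRGD or 7aaRAE by osmotic pump into the tumour, and naive C57BL/6 mice had no tumour. Each of these 4 groups had 3 samples, each pooled from 2 animals. 7aaRGD is a peptide with the integrin-binding RGD motif, 7aaRAE is its control peptide with RAE in place of RGD, and both were given at 2 mg/ml. The experiment at 28 DPI had 4 vehicle, 4 7aaRGD, 3 anti-PD-1 and 3 7aaRGD + anti-PD-1 samples of 1 animal each, with anti-PD-1 (an antibody against a T cell checkpoint receptor) at 10 mg/kg or control IgG in the other groups. The labels give nude mice for this experiment, while the methods give C57BL/6 mice with GL261 tumours, and it is called GL261 28 DPI below on the strength of the methods. In the U87-MG experiment, athymic nude mice, which lack mature T cells but keep their myeloid cells, carried U87-MG RFP+ cells, a human glioma line, and received vehicle, 7aaRGD or 7aaRAE until 21 DPI, with 3 samples a group, each pooled from 2 animals. Each tumour type came from 1 cell line.

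The values are RPKM, reads scaled by exon length and by the reads counted in the sample, after a constant of 2 was taken off the deposited values. Rows with no signal sat at exactly that constant, and some values fell slightly under it, which gives RPKM a little below 0. The number of reads per sample is unknown. Between 9327 and 9820 protein-coding genes per sample reached 1 RPKM. At 21 DPI this count was 9495 to 9570 with 7aaRGD and 9353 to 9410 with vehicle. It was 9327 to 9435 with 7aaRAE and 9361 to 9447 in naive mice, so the 7aaRGD samples lay above all others. Their share of values under the constant was 3.13% to 5.80%, against 5.995% to 6.71% with vehicle. The part of this in the members' differences was not tested. The 3 tables were normalized separately, so levels set side by side across tables carry no test. Itgam, which encodes CD11b, had group means from 59.5 to 180 RPKM, the myeloid markers Csf1r and Tyrobp had group means from 779 to 3046 and from 1120 to 1397 RPKM, and the labelled cell type therefore had its defining markers in all 11 groups.

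Oligodendrocytes wrap axons in myelin and arise from precursors that also persist in the adult brain. SOX10 and OLIG1 are transcription factors of this lineage, from the precursor to the mature cell, and many gliomas express factors of the same programme. MBP, MAG, CNP and CLDN11 are proteins of the myelin sheath, and CPE, JAM3 and MAGED1 are broader neural, endocrine or adhesion-related proteins that tumour cells can make.

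All 9 genes are protein-coding on mm10. Sox10 lies on chromosome 15 from 79154908 to 79165240 (minus strand), Olig1 on chromosome 16 from 91269772 to 91271933 (plus), Cpe on chromosome 8 from 64592542 to 64693054 (minus), Jam3 on chromosome 9 from 27097384 to 27155421 (minus) and Maged1 on chromosome X from 94535474 to 94542143 (minus). Mag lies on chromosome 7 from 30899176 to 30914873 (minus), Cnp on chromosome 11 from 100574904 to 100591729 (plus) and Cldn11 on chromosome 3 from 31149920 to 31164324 (plus). The RefSeq promoter table held no entry for Sox10, Olig1, Cpe and Jam3, and its entries for Maged1, Mag, Cnp and Cldn11 were used. The position and promoter of Mbp are not reported here. The bases before the starts of Mag and Cnp are shown because these members both rose with anti-PD-1 and with 7aaRGD + anti-PD-1 at 28 DPI. They are given 5′ to 3′ in the direction of the gene, on GRCm38.p6 (mm10), with matches to the E-box letters CANNTG and to the SOX core letters ACAAAG, on either strand, in capitals.
Mag, chr7:30914874-30915113, minus strand: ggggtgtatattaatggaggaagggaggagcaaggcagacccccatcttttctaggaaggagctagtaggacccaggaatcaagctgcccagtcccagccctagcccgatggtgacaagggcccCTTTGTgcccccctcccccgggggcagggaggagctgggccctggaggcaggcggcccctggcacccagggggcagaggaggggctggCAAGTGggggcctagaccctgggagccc
Cnp, chr11:100574689-100574903, plus strand: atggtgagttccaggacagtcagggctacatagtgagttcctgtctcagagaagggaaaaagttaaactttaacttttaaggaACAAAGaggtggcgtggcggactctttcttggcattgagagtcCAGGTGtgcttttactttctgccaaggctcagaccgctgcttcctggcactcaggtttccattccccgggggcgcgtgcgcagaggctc
Each shown sequence held 1 E-box match and 1 SOX core match. In windows of 250 bases before the start, which run on by 10 bases for Mag and 35 for Cnp into the annotated gene, the counts were the same. The Maged1 window held 2 E-box matches, which lie end to end, and 1 SOX core match, and the Cldn11 window held neither. Of 32851 RefSeq promoters of that length, 66.2% held an E-box match and 16.5% a SOX core match. A match describes the letters and is not a binding site.

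Sox10 and Olig1, the lineage transcription factors, were near 0 in naive mice and in the U87-MG experiment, and were present in every GL261 group. At 21 DPI Sox10 stood at -0.064, 0.14 and 0.20 RPKM in naive mice, 2.04, 1.86 and 2.83 with vehicle, 4.97, 5.64 and 4.17 with 7aaRGD and 3.25, 2.58 and 2.18 with 7aaRAE. Olig1 stood at -0.077, 0.30 and 0.31 RPKM in naive mice, 4.36, 2.78 and 5.09 with vehicle, 8.10, 11.7 and 7.01 with 7aaRGD and 7.37, 5.12 and 3.82 with 7aaRAE. The tumour-bearing samples were all above the naive ones for both genes, the 7aaRGD samples were the highest group for both, and 7aaRAE overlapped with vehicle for both. Sox10 with 7aaRGD also lay above all 7aaRAE samples, while Olig1 with 7aaRGD overlapped with 7aaRAE through the 7aaRAE sample at 7.37 RPKM.

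At 28 DPI the highest group was vehicle. Sox10 was 6.20, 8.55, 8.66 and 5.90 RPKM with vehicle, 4.32, 6.25, 4.72 and 4.42 with 7aaRGD, 3.25, 3.27 and 2.12 with anti-PD-1, and 1.56, 2.01 and 1.57 with 7aaRGD + anti-PD-1. Olig1 was 10.6, 14.7, 16.8 and 8.07 RPKM with vehicle, 9.26, 10.1, 9.62 and 8.48 with 7aaRGD, 6.66, 5.90 and 3.62 with anti-PD-1, and 2.12, 3.56 and 2.96 with 7aaRGD + anti-PD-1. Vehicle overlapped with 7aaRGD for both genes, anti-PD-1 lay wholly below 7aaRGD, and the combination lay wholly below anti-PD-1. In the U87-MG experiment Sox10 did not pass 0.30 RPKM and Olig1 did not pass 0.70 RPKM in any of the 9 samples. Neither passed the filter of a mean of 1 RPKM there. The U87-MG cells are human, while reads were aligned to mm10, the mouse genome. Values of that experiment therefore do not measure transcripts of the tumour cells as GL261 values can, for these and all other genes described.

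**Figure D1:**
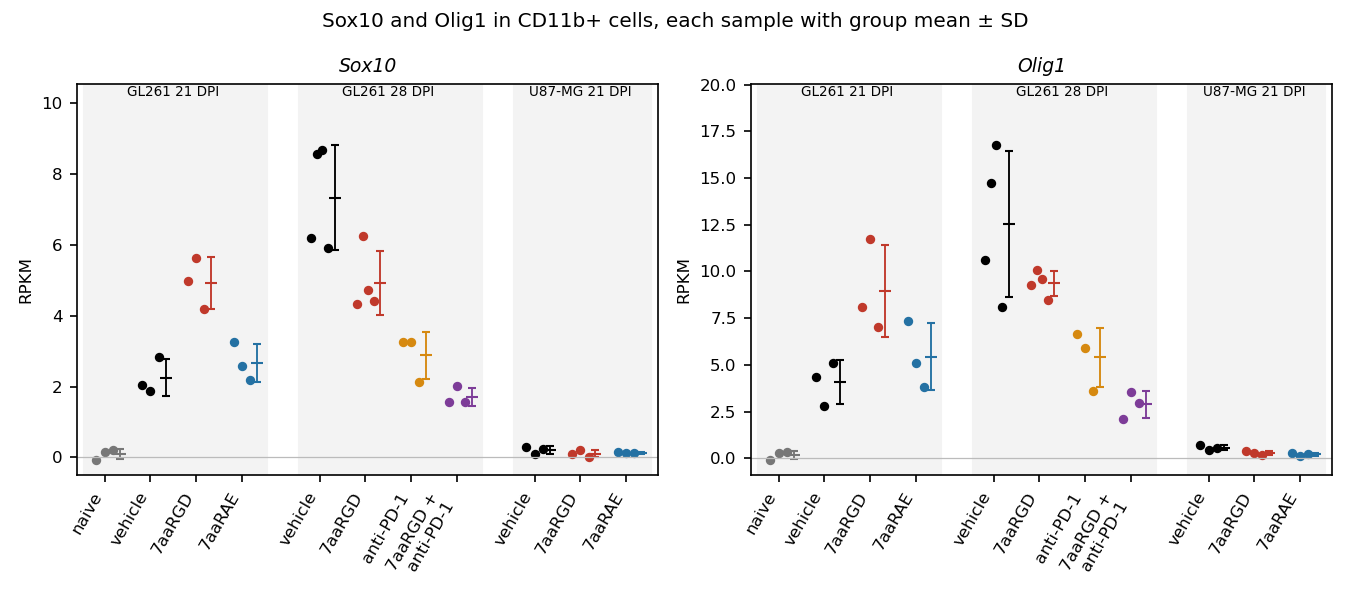
Sox10 (left) and Olig1 (right) in RPKM (y axis) for every sample of every group (x axis), with each group's mean ± SD beside its points, 3 or 4 samples a group and 1 shaded block per table. Both genes sit near 0 in naive and U87-MG samples. The highest group of the GL261 21 DPI table is 7aaRGD and that of the GL261 28 DPI table is vehicle.

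Both genes kept nearly the same proportion to each other. The ratio of Olig1 to Sox10, both in RPKM, ranged from 1.49 to 2.27 with a median of 1.80 over the 9 tumour-bearing samples at 21 DPI, and from 1.35 to 2.14 with a median of 1.79 over the 14 samples at 28 DPI. This is a description within samples, whose 2 values share a library.

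Among the broader members, Maged1, a MAGE family protein that takes part in neurotrophin signalling, and Jam3, a junctional adhesion molecule, were highest in naive mice. Maged1 was 23.8, 26.3 and 26.6 RPKM in naive mice, 4.51, 3.03 and 4.90 with vehicle, 8.34, 8.0 and 8.44 with 7aaRGD and 5.12, 5.40 and 4.90 with 7aaRAE at 21 DPI. Jam3 was 6.61, 6.53 and 7.53 RPKM in naive mice, 0.62, 0.51 and 1.17 with vehicle, 2.29, 1.98 and 2.07 with 7aaRGD and 1.05, 1.08 and 0.87 with 7aaRAE. For both genes the 7aaRGD samples lay between the naive samples and those of the other tumour-bearing groups, with no overlap on either side. The mean in naive mice was 6.17 times the vehicle mean for Maged1 and 9.02 times for Jam3. Cpe, carboxypeptidase E, which trims neuropeptide precursors, was 2.09, 0.98 and 1.49 RPKM in naive mice, 0.46, 0.53 and 0.90 with vehicle, 1.82, 1.68 and 1.58 with 7aaRGD and 0.95, 0.94 and 0.89 with 7aaRAE. Its 7aaRGD samples overlapped with the naive ones and lay above vehicle and 7aaRAE.

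At 28 DPI Maged1 was 7.11, 8.44, 10.4 and 6.47 RPKM with vehicle, 10.1, 6.67, 8.28 and 9.72 with 7aaRGD, 5.84, 5.73 and 5.60 with anti-PD-1, and 6.51, 6.39 and 6.18 with 7aaRGD + anti-PD-1. Cpe was 3.40, 4.02, 3.45 and 2.39 RPKM with vehicle, 2.07, 1.63, 3.32 and 2.66 with 7aaRGD, 2.68, 1.39 and 1.06 with anti-PD-1, and 1.81, 1.58 and 1.25 with the combination. The anti-PD-1 samples were the lowest for Maged1, below every vehicle sample, while for Cpe they overlapped with all other groups. Jam3 stayed between 0.42 and 1.25 RPKM in all 14 samples, with a mean under the filter. Its combination samples, 1.15 to 1.25 RPKM, lay above those with 7aaRGD and with anti-PD-1 and overlapped with vehicle, and the other 3 groups overlapped with each other. In the U87-MG experiment Maged1 was 13.4 to 23.2 RPKM and Jam3 2.27 to 5.62 RPKM over the 9 samples, and their groups overlapped. Cpe was 2.14, 1.99 and 1.49 RPKM with vehicle, 1.47, 1.43 and 1.60 with 7aaRGD and 1.15, 0.83 and 0.91 with 7aaRAE in that experiment, and the 7aaRAE samples were below all others.

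The myelin members follow. Mbp, the structural protein of compact myelin, was 7.39, 6.99 and 6.42 RPKM in naive mice, 7.68, 6.92 and 9.03 with vehicle, 8.92, 8.25 and 8.48 with 7aaRGD and 8.90, 9.53 and 9.23 with 7aaRAE at 21 DPI. Each of its groups overlapped with the next in order, and over all 35 samples Mbp stayed between 5.44 and 11.1 RPKM. The Mbp gene also makes the Golli transcripts, which immune cells are known to express, and a value per gene does not separate them. Cnp, an enzyme of the myelin membrane that other cells also express, was 25.7, 24.5 and 23.8 RPKM in naive mice, 29.9, 40.0 and 31.5 with vehicle, 34.6, 31.2 and 35.4 with 7aaRGD and 31.2, 26.3 and 35.0 with 7aaRAE. The tumour-bearing groups of Cnp overlapped with each other and lay above the naive samples. Mag, an adhesion protein of the myelin sheath, was 6.01, 5.62 and 6.08 RPKM in naive mice, 3.07, 3.10 and 2.38 with vehicle, 2.48, 2.78 and 2.97 with 7aaRGD and 3.28, 2.73 and 3.08 with 7aaRAE. Its naive samples were above all others, and the tumour-bearing groups overlapped. Cldn11, the tight-junction protein of myelin, stayed at or under 0.81 RPKM in all 35 samples. At 21 DPI its 7aaRGD samples, 0.81, 0.66 and 0.49 RPKM, lay above those with vehicle, -0.042, 0.12 and 0.28 RPKM. Maged1, Jam3 and Mag thus had their highest group means at 21 DPI in mice without a tumour, at 25.6, 6.89 and 5.90 RPKM. Sox10 and Olig1 had means of 0.09 and 0.18 RPKM in the same mice. Sox10, Olig1, Mbp and Cnp had their lowest group means there, and Cpe and Cldn11 were highest with 7aaRGD. The cell source of Maged1, Jam3 and Mag in naive mice was not tested.

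At 28 DPI Cnp was 13.3, 17.9, 19.0 and 17.7 RPKM with vehicle, 18.6, 19.5, 18.6 and 21.4 with 7aaRGD, 22.7, 24.9 and 27.6 with anti-PD-1, and 28.7, 25.0 and 26.2 with 7aaRGD + anti-PD-1. Mag was 3.75, 4.43, 4.22 and 3.46 RPKM with vehicle, 4.60, 3.76, 3.94 and 4.47 with 7aaRGD, 4.42, 5.69 and 5.35 with anti-PD-1, and 5.85, 5.07 and 5.22 with the combination. The groups that received anti-PD-1 were above all others for Cnp, and for Mag the combination was above vehicle and 7aaRGD while anti-PD-1 alone touched them through its sample at 4.42 RPKM. Mbp was 7.62 to 11.1 RPKM over the 14 samples and its groups overlapped. In the U87-MG experiment Mbp (5.44 to 8.04 RPKM), Mag (5.82 to 7.45 RPKM) and Cnp (10.05 to 22.9 RPKM) overlapped between all groups.

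**Figure D2:**
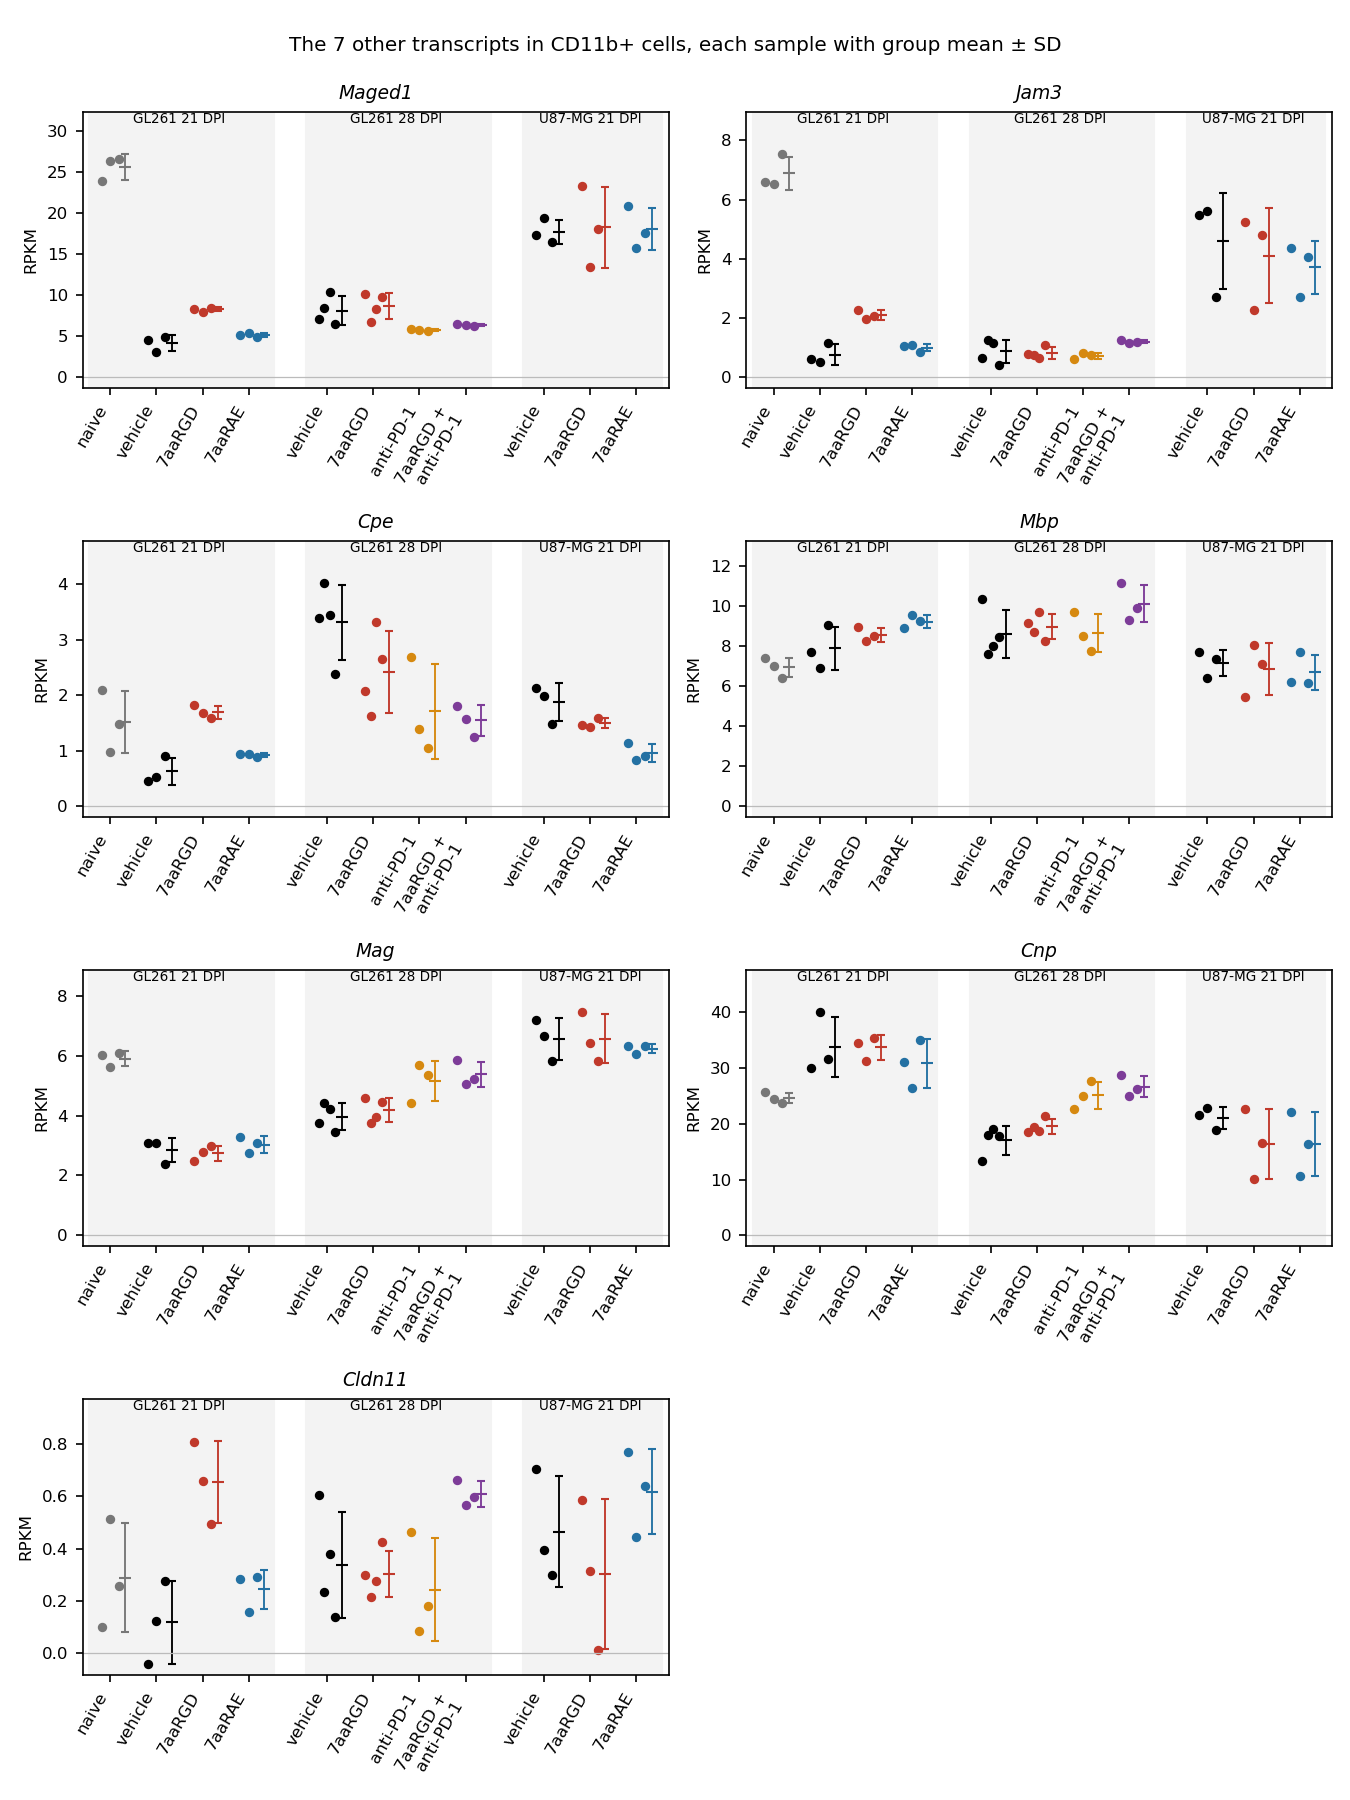
The other members in RPKM (y axis) for every sample of every group (x axis), with group means ± SD and 1 shaded block per table. Maged1 and Jam3 are highest in naive mice, Mbp varies little between groups, Cnp and Mag are higher in the groups with anti-PD-1 at 28 DPI, and Cldn11 does not pass 0.81 RPKM.

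The contrasts with vehicle at 21 DPI are a description, since 7aaRGD against vehicle selected the members, 7aaRAE shares the vehicle samples, and 7aaRGD against 7aaRAE shares the 7aaRGD samples. On the log2(RPKM + 1) scale, which understates changes of low genes, 7aaRGD exceeded vehicle by 0.97 for Olig1 (SE 0.24), 0.87 for Sox10 (SE 0.14), 0.87 for Maged1 (SE 0.12), 0.84 for Jam3 (SE 0.12) and 0.73 for Cpe (SE 0.09), each with no overlap of the 3 samples against 3. The group means of Sox10 and Olig1 were both 2.19 times those of vehicle. Differences were 0.11 for Mbp, 0.01 for Cnp and -0.04 for Mag, whose groups overlapped, and 0.57 for Cldn11, which was below the filter. Of the 8 members that passed the filter, 5 were higher with no overlap, where 12.5% of 9441 genes were, and nothing is read from this, since the contrast chose the members. Over all 9441 genes, 1181 were higher and 483 were lower without overlap. The median over the 9 members was 0.73, beside 0.02 over all genes.

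With 7aaRAE the differences from vehicle ran from 0.33 for Olig1 to -0.13 for Cnp, with a median of 0.20, and 0 of 8 members were higher without overlap, where 6.12% of genes were. 7aaRGD exceeded 7aaRAE by 0.69 for Sox10, 0.64 for Jam3, 0.59 for Maged1 and 0.48 for Cpe without overlap and by 0.64 for Olig1 with overlap, so 4 of 8 members were higher with no overlap, where 7.83% of genes were. These contrasts share samples with the one that chose the members. The difference in structure between both peptides is the RGD motif and its replacement by RAE, at the same dose and time.

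Tumour-bearing mice differed from naive mice in most genes. Vehicle exceeded naive by 2.10 for Olig1 (SE 0.20), 1.57 for Sox10 (SE 0.14) and 0.43 for Cnp, and was lower by -2.39 for Maged1, -2.18 for Jam3, -0.85 for Mag and -0.61 for Cpe. That is 3 members higher without overlap, where 35.6% of 9728 genes were, and 4 lower, where 49.8% were. The comparison of 7aaRAE with naive mice uses no sample of the contrast that chose the members and was tested with limma, with p-values adjusted over all genes by the Benjamini-Hochberg method. Of the 8 members tested, 4 rose and 4 fell at an adjusted p under 0.05, as 83.2% of 9728 genes changed in 1 direction or the other. Olig1 rose by 2.43 (SE 0.20, adjusted p 1.13e-06 in limma), Sox10 by 1.75 (SE 0.12, adjusted p 4.52e-07), Mbp by 0.37 (adjusted p 0.000431) and Cnp by 0.30 (adjusted p 0.0112). Maged1 (-2.11, SE 0.06, adjusted p 9.87e-10 in limma), Jam3 (-1.98, SE 0.08, adjusted p 4.95e-09), Mag (-0.78, adjusted p 2.92e-06) and Cpe (-0.36, adjusted p 0.032) fell. Sox10 and Olig1, with naive means of 0.09 and 0.18 RPKM, passed the filter only through the 7aaRAE samples. Jam3 and Cpe, with 7aaRAE means of 0.999 and 0.93 RPKM, passed it only through the naive samples. The direction of these calls is therefore tied to the filter. The call of Cpe was lost without naive replicate 1 (-0.20), naive replicate 3 (-0.36), or any of 7aaRAE replicates 1, 2 and 3 (-0.37, -0.37 and -0.35), and it was made in 8 of 15 alternatives. In bulk samples, fewer cells of a type and less RNA per cell cannot be told apart.

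At 28 DPI 7aaRGD alone was compared with vehicle in samples that had no part in the choice of the members. None of the 7 members tested passed the threshold, where 0.647% of 9737 genes did (63 genes). Sox10 differed by -0.48 with a 95% interval from -0.79 to -0.18 and an adjusted p of 0.141 in limma. It was 1 of 7 members with an unadjusted p under 0.05, where 1421 of 9737 genes had one. Olig1 differed by -0.34 (interval -0.78 to 0.09) and Cpe by -0.35 (-0.75 to 0.06), and Maged1, Mag, Mbp and Cnp by 0.06 to 0.20. In the 21 DPI contrast that chose the members, the differences of Sox10, Olig1 and Cpe were 0.87, 0.97 and 0.73, and they were not tested against these. The 2 experiments differ in time, in animals per sample, in control IgG and in normalization, and these cannot be told apart. The count of genes called in this comparison was not stable: it was 0 under a fit with 1 residual degree of freedom less.

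With anti-PD-1 alone, 4 of the 7 members tested fell against vehicle and 2 rose, where 23.0% of 9737 genes changed. Sox10 fell by 1.10 (SE 0.15, adjusted p 0.000485 in limma), to 0.393 times the vehicle mean, and Olig1 fell by 1.07 (SE 0.22, adjusted p 0.00419), to 0.43 times. Cpe (-0.70, SE 0.20, adjusted p 0.0251 in limma) and Maged1 (-0.42, SE 0.14, adjusted p 0.043) also fell. Cnp rose by 0.54 (SE 0.11, adjusted p 0.00359 in limma) and Mag by 0.31 (SE 0.09, adjusted p 0.0314), while Mbp differed by 0.01 with an interval from -0.21 to 0.23. Sox10, Olig1 and Cnp were called under every alternative in which they were tested. Cpe was not called without vehicle replicate 1 or 2 (-0.69 and -0.62) or anti-PD-1 replicate 2 or 3 (-0.63 and -0.53), and was called in 13 of 17 alternatives. Maged1 was not called without vehicle replicate 2 or 3 (-0.395 and -0.305) or any of the 3 anti-PD-1 replicates (-0.43, -0.42 and -0.41), nor with a pseudocount of 5, with no filter, with a replicate block, with only the groups compared or with 1 residual degree of freedom less. It was called in 8 of 18 alternatives. Mag was not called without vehicle replicate 1 or 4 (0.29 and 0.26) or anti-PD-1 replicate 2 or 3 (0.25 and 0.28), with no filter, with a replicate block or with only the groups compared, and was called in 10 of 17.

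With 7aaRGD + anti-PD-1 the lineage factors were again lower than with vehicle. Sox10 fell by 1.60 (SE 0.15, adjusted p 6.61e-06 in limma), to 0.234 times the vehicle mean, and Olig1 fell by 1.77 (SE 0.22, adjusted p 4.19e-05), to 0.23 times. Cpe fell by 0.75 (adjusted p 0.00912 in limma), Cnp rose by 0.63 (adjusted p 0.000507) and Mag rose by 0.36 (adjusted p 0.00717). That is 3 members down and 2 up of 7, where 43.3% of genes changed, and these 5 calls held under every alternative in which the gene was tested. Maged1 (-0.29, adjusted p 0.108 in limma) and Mbp (0.21, adjusted p 0.0998) did not pass.

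The combination was also compared with each single treatment. Against 7aaRGD alone, Sox10 (-1.12, adjusted p 0.000186 in limma), Olig1 (-1.43, adjusted p 0.000354) and Maged1 (-0.38, adjusted p 0.0445) fell, and Cnp (0.43, adjusted p 0.00799) and Mag (0.30, adjusted p 0.0248) rose, where 36.6% of genes changed. The call of Maged1 was lost without 7aaRGD replicate 1, 3 or 4 (-0.31, -0.40 and -0.33) or any of the combination replicates 1, 2 and 3 (-0.40, -0.38 and -0.36), and that of Mag without 7aaRGD replicate 2 or 3 (0.26 and 0.28) or combination replicate 1 or 3 (0.25 and 0.32). Over all alternatives in which they were tested, Maged1 was called in 7 of 18 and Mag in 12 of 17. Against anti-PD-1 alone no member passed, where 0.0411% of genes did (4 of 9737). Sox10 differed by -0.50 (interval -0.86 to -0.15, adjusted p 0.173 in limma) and Olig1 by -0.71 (interval -1.21 to -0.20, adjusted p 0.176). Of the 7 members, 2 had an unadjusted p under 0.05, where 1460 of 9737 genes had one. Among these 7, Sox10 and Olig1 were lower without overlap of samples, where 15.3% of genes were, and Maged1 was higher, where 6.23% were. Jam3 and Cldn11, which were below the filter, were also higher without overlap. The interaction term, which asks whether the combination differs from the sum of the single treatments on the log2 scale, called 0% of the 9737 genes in limma, with 794 at an unadjusted p under 0.05. It was -0.02 for Sox10 (interval -0.49 to 0.45) and -0.37 for Olig1 (interval -1.03 to 0.30).

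**Figure D3:**
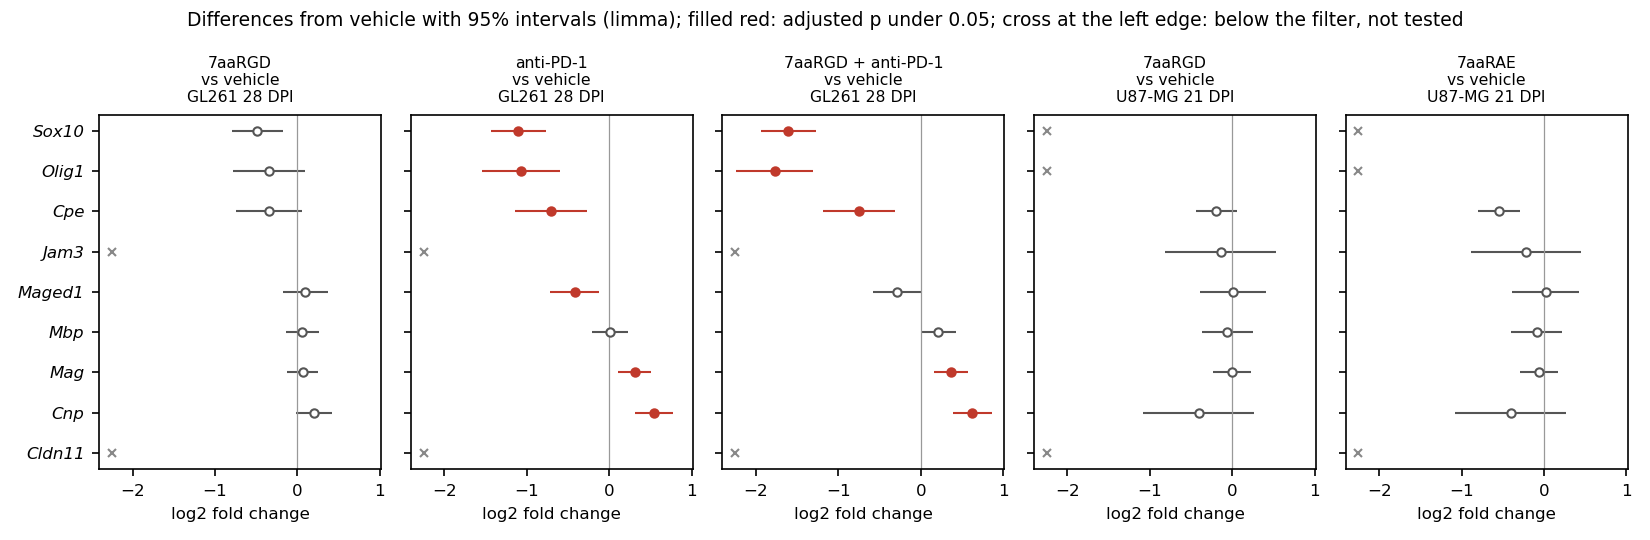
Differences from vehicle on the log2(RPKM + 1) scale (x axis) with 95% intervals for each member (y axis) in the 5 comparisons with vehicle that had no part in the choice of the members. Filled points passed an adjusted p of 0.05 in limma, and crosses at the left edge mark members below the filter that were not tested. Sox10 and Olig1 lie left of 0 and Cnp and Mag right of 0 in the panels with anti-PD-1, and no member passed in the U87-MG panels.

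In the U87-MG experiment no member passed in any of the 3 comparisons, with 6 members tested and p-values adjusted over 9665 genes in each. The percentages of genes called in limma were 0 for 7aaRGD against vehicle (364 genes at an unadjusted p under 0.05), 0.0103 for 7aaRAE against vehicle and 0 for 7aaRGD against 7aaRAE (327 genes at an unadjusted p under 0.05). With 7aaRGD the difference from vehicle was 0.01 for Maged1 (interval -0.39 to 0.41), -0.14 for Jam3 (-0.81 to 0.53) and -0.20 for Cpe (-0.45 to 0.06), beside 0.87, 0.84 and 0.73 in the GL261 contrast that selected them. The largest difference was that of Cpe with 7aaRAE, -0.55 (SE 0.11, interval -0.80 to -0.30, adjusted p 0.202 in limma). Cpe also differed by 0.35 between 7aaRGD and 7aaRAE, with an interval from 0.10 to 0.60 and an adjusted p of 0.9999 in limma. For Maged1, Mag and Mbp the intervals of the difference between both peptides were -0.41 to 0.39, -0.17 to 0.29 and -0.29 to 0.33.

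Other genes of the oligodendrocyte lineage come from lists of marker genes, each described without the members it holds. Of the 16 other precursor and lineage genes, 15 had a mean under 0.5 RPKM in naive mice and 9 in the 28 DPI vehicle group, so few passed the filter. Olig2, the partner of OLIG1 in the lineage, had means of 0.0529 RPKM in naive mice, 1.92 with vehicle, 4.56 with 7aaRGD and 2.54 with 7aaRAE at 21 DPI. At 28 DPI Olig2 was 3.91 ± 1.4 RPKM (SD, n = 4) with vehicle, 2.598 with 7aaRGD, 1.98 with anti-PD-1 and 0.84 with the combination, and it fell with anti-PD-1 (-0.68, adjusted p 0.0186 in limma) and with the combination (-1.39). Its group order was that of Sox10 and Olig1 in both GL261 tables, and it was at 0.0694 RPKM or lower in the means of the U87-MG groups. Olig2 was picked out after its values were seen. Its combination mean lay under the filter of 1 RPKM, which it passed through the other groups. In the list, 1 of 2 genes tested fell and none rose with anti-PD-1 and with the combination against vehicle, and 0 of 2 changed with 7aaRGD alone. Of all genes tested, 12.2% fell with anti-PD-1, 25.8% fell with the combination and 0.647% changed with 7aaRGD alone. The summed level of the 16 genes ran from 8.53 to 13.96 RPKM with vehicle, 8.04 to 9.80 with 7aaRGD, 5.22 to 6.39 with anti-PD-1 and 3.72 to 4.51 with the combination.

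Of the 18 other genes of the mature oligodendrocyte and myelin list, 10 to 13 had a mean under 0.5 RPKM in each group, and these included the myelin-specific Mog, at 0.0566 to 0.366 RPKM over the 11 group means. Mobp, another myelin protein, had means from 0.127 to 0.852 RPKM. Trf, transferrin, which oligodendrocytes make and which other cells also express, held most of the summed level of the list, which ran from 373 to 438 RPKM with vehicle, 380 to 505 with 7aaRGD, 261 to 379 with anti-PD-1 and 363 to 387 with the combination at 28 DPI, and from 671 to 688 in naive mice, 170 to 285 with vehicle, 187 to 257 with 7aaRGD and 172 to 186 with 7aaRAE at 21 DPI. Trf itself did not pass the test at 28 DPI. Sirt2, a deacetylase that oligodendrocytes and other cells express, fell with anti-PD-1 (-0.25, adjusted p 0.0389 in limma) and with the combination (-0.39, adjusted p 0.00212). Gjc3, a connexin of myelinating glia, had means of 0.0214 RPKM in naive mice, 1.19 with vehicle, 2.04 with 7aaRGD and 1.44 with 7aaRAE at 21 DPI, and 3.34, 2.174, 1.03 and 0.52 RPKM with vehicle, 7aaRGD, anti-PD-1 and the combination at 28 DPI. It fell with anti-PD-1 (-1.10, adjusted p 0.000526 in limma) and with the combination (-1.50), and its group order was that of Sox10. Gjc3 was picked out after its values were seen. Its combination mean lay under the filter of 1 RPKM, which it passed through the other groups. The member Mbp did not pass the test. In the list, 2 of 7 genes tested fell and none rose with anti-PD-1 and with the combination, where 12.2% and 25.8% of all genes fell. At 21 DPI 3 of 6 were higher with 7aaRGD than with vehicle without overlap, where 12.5% of all genes were in this contrast, which chose the members.

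Sox2 and Nes of the glioma and neural precursor list and S100b of the astrocyte list were also highest with vehicle and lowest with the combination at 28 DPI. Sox2, a stem cell factor, had means of 0.235 RPKM in naive mice, 1.20, 2.29 and 1.37 RPKM with vehicle, 7aaRGD and 7aaRAE at 21 DPI, and 2.98, 2.19, 1.44 and 0.825 RPKM with vehicle, 7aaRGD, anti-PD-1 and the combination at 28 DPI. It fell with anti-PD-1 (-0.71, adjusted p 0.00291 in limma) and with the combination (-1.12). S100b, a calcium-binding protein of glia, had means of 3.19, 2.03, 1.81 and 1.03 RPKM in the same 28 DPI groups and fell with both (-0.58, adjusted p 0.018 in limma, and -1.03). Of the 5 astrocyte genes tested, S100b was the 1 that fell, while 1 rose with anti-PD-1 and 2 rose with the combination. For this and the next list, 10.8% of all genes rose and 12.2% fell with anti-PD-1. With the combination 17.5% rose and 25.8% fell. Nes, the neural precursor filament nestin, fell with the combination (-0.71, adjusted p 0.000739 in limma) and differed by -0.35 with anti-PD-1 (adjusted p 0.0671). Tubb3, a neuronal tubulin, was the one neuron marker of 12 that passed the filter at 28 DPI, and it fell with the combination (-0.99, adjusted p 0.00138 in limma). Other genes of the precursor list moved the other way. Of its 7 genes tested, 3 rose and 1 fell with anti-PD-1, and 3 rose and 2 fell with the combination. Vim, a filament protein that myeloid cells also express, held most of its summed level in the GL261 tumour groups and rose with both treatments (0.69, adjusted p 0.00624 in limma, and 1.09), as did Cd44, an adhesion receptor of leukocytes and tumour cells (0.53, adjusted p 0.01 in limma, and 0.65). Sox2, Nes, S100b, Gjc3 and Olig2 were picked out after their values were seen, and they are among the genes shown beside the members in the plot of group means. Sox2, Gjc3 and Olig2 had combination means under 1 RPKM and passed the filter through the other groups. The direction of their calls with the combination is therefore tied to the filter.

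**Figure D4:**
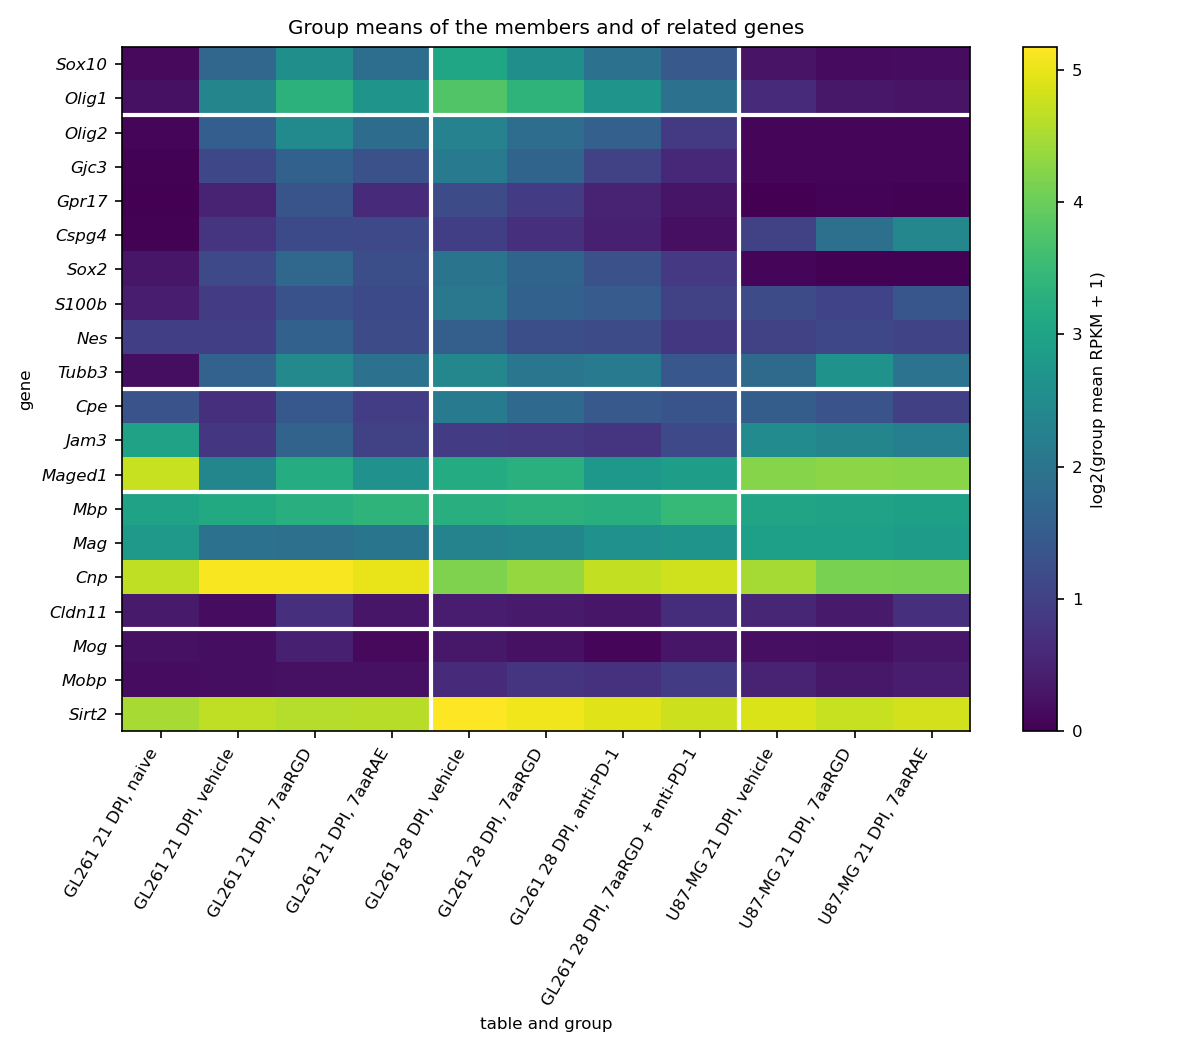
Group means on the log2(RPKM + 1) scale (colour) for the members and for related list genes (rows, between white lines) in the 11 groups (columns, white lines between the 3 separately normalized tables). The related genes were chosen after their values were seen. Olig2, Gjc3, Gpr17 and Sox2 share the column order of Sox10 and Olig1 in the GL261 tables, and Maged1 and Jam3 are brightest in naive mice among the columns of the 21 DPI table.

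Markers of other cell types moved in the same comparisons, and their part in the members' differences was not tested. At 21 DPI the summed level of 6 microglia markers was 346 to 566 RPKM with vehicle, 644 to 854 with 7aaRGD and 494 to 671 with 7aaRAE, against 6538 to 6743 in naive mice, and 4 of the 6 were higher with 7aaRGD than with vehicle without overlap, where 12.5% of all genes were. The 16 other precursor and lineage genes summed to 4.50 to 8.23 RPKM with vehicle, 9.46 to 15.1 with 7aaRGD and 6.98 to 8.46 with 7aaRAE, and the 12 neuron markers to 2.23 to 3.31, 3.88 to 6.38 and 2.74 to 4.26. The 12 astrocyte markers summed to 18.05 to 23.2, 17.3 to 20.1 and 17.6 to 20.7 RPKM in these groups, the 14 glioma and neural precursor markers to 378 to 419, 361 to 446 and 374 to 402, and 7 proliferation markers to 48.2 to 57.1, 54.9 to 61.6 and 53.7 to 56.8. The 10 endothelial markers summed to 94.7 to 123, 99.3 to 127 and 119 to 127 RPKM, and the 7 mural markers, none of which passed the filter, to 1.00 to 1.21, 1.58 to 1.86 and 1.15 to 1.57. The 7 monocyte and macrophage markers summed to 5136 to 6424, 5175 to 5942 and 4981 to 5994 RPKM, and the 8 myeloid markers to 3966 to 4707, 4488 to 5089 and 4333 to 4794. The summed levels of the microglia, precursor, neuron and mural lists did not overlap between 7aaRGD and vehicle, and those of the other lists given here did. No share over all genes stands beside these sums. Of the neuron and mural genes, 1 and 0 passed the filter, so most of them were low. The 7aaRGD samples also had more genes at 1 RPKM than vehicle, and a link to these sums was not tested.

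At 28 DPI 7 monocyte and macrophage markers summed to 2900 to 3612 RPKM with vehicle, 2635 to 4045 with 7aaRGD, 4783 to 6734 with anti-PD-1 and 5635 to 7709 with the combination. Of these 7 genes, 3 rose and none fell with anti-PD-1, and 3 rose and 1 fell with the combination. Beside these and the list counts that follow, 10.8% of all genes rose and 12.2% fell with anti-PD-1. With the combination 17.5% of all genes rose and 25.8% fell. Lyz2, lysozyme of macrophages and granulocytes, the highest of the 7 monocyte and macrophage markers, rose by 0.74 (adjusted p 0.0048 in limma) and by 1.20, while Arg1 (0.49 and 0.74) and Chil3 (0.61 and -1.16) did not pass. The microglia markers summed to 373 to 608, 479 to 945.5, 500 to 663 and 660 to 768 RPKM in the same order, with 0 of 6 called with anti-PD-1 and 4 risen with the combination. P2ry12, a purinergic receptor of microglia, was among the latter (0.60, adjusted p 0.00962 in limma), and Tmem119 (0.41) and Fcrls (0.62) were not. The glioma and neural precursor list summed to 136 to 164 RPKM with vehicle and 260 to 293 with the combination, and the endothelial list to 36.4 to 51.6 and 80.9 to 99.4, with 3 of 4 endothelial genes tested risen, among them Slc2a1 (1.09), Flt1 (1.55) and Kdr (0.41). The astrocyte list summed to 17.2 to 27.7 and 27.5 to 35.0 RPKM with vehicle and the combination, the neuron list to 4.35 to 8.38 and 3.65 to 4.50, and the mural list to 1.46 to 2.55 and 1.26 to 2.53. Of the 3 most abundant astrocyte genes, Slc1a3 (0.68, adjusted p 0.0484 in limma) and Aldoc (1.11) rose with the combination and Gfap (-0.08) did not pass. The 8 myeloid markers summed to 4134 to 4926 RPKM with vehicle, 4287 to 5494 with 7aaRGD, 4485 to 5053 with anti-PD-1 and 4802 to 4996 with the combination. The 7 proliferation markers, of which 0 were called with anti-PD-1 and 2 fell with the combination, summed to 55.6 to 71.4 RPKM with vehicle and 50.7 to 61.9 with the combination. The groups that received anti-PD-1 had lower Sox10 and Olig1 and a higher monocyte and macrophage sum than vehicle, and a link between these was not tested. With 7aaRGD alone, both genes and that sum overlapped with vehicle. The endothelial and the glioma and neural precursor sums were also higher with the combination than with vehicle. Slc2a1, which the authors relate to glycolysis, held most of the level of the endothelial list. Its mean over all samples was 50.9 RPKM, beside 4.03 for Flt1, the next of the list. In the U87-MG experiment no gene of any of the 11 lists was called, where at most 0.0103% of all genes were in any comparison.

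For each member, the 3 genes whose levels followed it most closely were taken from 9065 candidate genes, by the smallest Pearson correlation over the 12, 14 and 9 samples of the 3 tables. These correlations are across samples that share group differences and sample composition, and are a description. The printed values of Rpl24, Gmnn, Rps3a1 and Atp5d are those of the U87-MG table, in which Sox10 and Olig1 were near 0, so these matches rest in part on values near 0. For Sox10 they were Rpl24 (0.822), Pole3 (0.809) and Gmnn (0.761), and for Olig1 Rac2 (0.830), Rps3a1 (0.813) and Atp5d (0.803). For Cpe they were Sparcl1 (0.787), Fgfrl1 (0.725) and Ramp1 (0.566), for Jam3 Klk8 (0.738), Jam2 (0.716) and Chst7 (0.715), and for Maged1 Neurl1a (0.826), Slco4a1 (0.801) and Tuba1a (0.799). For Cnp they were Uba7 (0.868), Amigo3 (0.844) and H2-T24 (0.832), for Mag Ppp1r13b (0.789), Snn (0.744) and Rras2 (0.731), and for Mbp Foxp4 (0.732), Rest (0.726) and Susd6 (0.712). For Cldn11, which was low throughout, the closest were Gadd45g (0.45), Fcgr1 (0.359) and Agrn (0.359). No gene was named for more than 1 member.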

How the data were processed

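RNA of CD11b+ cells was sequenced by the authors with a stranded mRNA kit. Per the labels and the methods, trimming was with Trimmomatic, alignment to mm10 with STAR and strand-aware counting per gene with HTSeq 0.11.1. The authors' own test, NOISeq, was not run here. The values deposited by the authors were read as RPKM plus 2: 49.8% to 52.4% of rows hold exactly 2, and the remainder times exonic length sums, in each sample, to 0.988 to 1.01 times the total that RPKM should give. The constant was subtracted, giving RPKM under 0 in 3.13% to 8.78% of values per sample. Differences between replicates lack 1 dimension at 21 DPI (7 of 8) and at 28 DPI (9 of 10) but not for U87-MG (6 of 6), a step not given in the sources used here. No source gives the depth.

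Symbols were looked up in the mm10 annotation (98.8% of 54513 rows, 21849 protein-coding). The tests were made by limma 3.58.1 (R 4.3.3) on log2(RPKM + 1), keeping protein-coding genes whose mean over the fitted samples reached 1 RPKM, with Benjamini-Hochberg adjustment and a threshold of 0.05. The tumour-bearing groups of a table were fitted together, and naive mice with the group they were compared with. The fits were checked on simulated data. Lists of cell type markers were described by counts and summed levels. Genes named were the members, the 3 most abundant genes of each list where reported, the 3 genes most like each member and, where a result turns on them, others. The members, lists and this rule were chosen with earlier results of these data known. Replicate numbers were not used to pair samples in the main fits, and U87-MG columns carry none. Samples of 1 group came from separate animals or pools. Samples numbered 4 with anti-PD-1 and naive nude mice were not analysed here. Alternatives were another pseudocount, filter or scaling, all rows, a replicate block, only the groups compared, each sample left out and, chosen after seeing the data, 1 residual degree of freedom less. Results of some list genes are not reported here.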

Additional observations from a re-analysis of the deposited data

Results flagged for a closer look

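None of the 18 sets of 4 values (each member in the vehicle and 7aaRGD groups at 28 DPI) had a value that stood apart by Dixon's criterion. In 6 cases, every treated sample lay above the vehicle mean in 1 experiment and every treated sample lay below it in another. These differences lie between separately normalized tables and were not tested. Those with U87-MG also set a human tumour against a mouse tumour, with reads of both aligned to the mouse genome. For 7aaRGD minus vehicle, the log2 fold change at 28 DPI minus that at 21 DPI was -1.357 for Sox10 and -1.310 for Olig1. The same contrast in U87-MG minus that in GL261 at 21 DPI was -1.262 for Olig1, which was near 0 in the U87-MG samples, and -0.930 for Cpe. For 7aaRAE minus vehicle, U87-MG minus GL261 at 21 DPI was -0.798 for Cpe and -0.419 for Jam3. The 21 DPI contrast of 7aaRGD with vehicle chose the members, so its size is not independent of the choice.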

How the results depend on the processing

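No called direction reversed under any alternative, while the uncalled difference of Mbp with anti-PD-1 ran from -0.066 to 0.093. Over the 9 members the median difference at 21 DPI moved with the pseudocount: with 0.1 and with 5 it was 1.1106 and 0.2507 for 7aaRGD against vehicle, 0.3308 and 0.0749 for 7aaRAE against vehicle, 0.7248 and 0.1759 for 7aaRGD against 7aaRAE, and -0.7925 and -0.047 for vehicle against naive. Leaving out 1 replicate gave 0.1175 to 0.3039 for 7aaRAE against vehicle and -0.3108 to -0.0807 for vehicle against naive. With a mean of at least 5 RPKM fewer members were tested, and 3 were called for 7aaRAE against naive, 3 for anti-PD-1 against vehicle, 2 for the combination against vehicle and 3 for the combination against 7aaRGD. Leaving out 1 replicate gave 3 to 5 members called for anti-PD-1 against vehicle (3 without anti-PD-1 replicate 2 or 3) and 3 to 4 for the combination against 7aaRGD (3 without 7aaRGD replicate 3 or combination replicate 1 or 3). Median-of-ratios scaling moved the median of all genes for 7aaRAE against naive from -0.15 to 0.01, and Cpe was then not called (-0.26). Of the values for the comparisons, 200 stayed and 23 moved, and of those for single members 551 stayed, 40 moved and 44 were no longer called.

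Of the 18 pairs of same-numbered samples at 21 DPI, 1 correlated above 0.1 (range -0.773 to 0.118). Of the 19 at 28 DPI, 3 did (range -0.499 to 0.366). The differences between replicates lack 1 dimension in both tables, through a step not given in the sources used here. These correlations therefore cannot decide whether the numbers pair the samples. The main fits treated samples as unpaired, and the U87-MG columns carry no replicate numbers. With a replicate block, 4 members were called for anti-PD-1 against vehicle and 3 for the combination against 7aaRGD, in both cases without Maged1 and Mag. The 63 genes called for 7aaRGD against vehicle at 28 DPI became 0 with the block, with quantile normalization, with only these groups fitted and with 1 residual degree of freedom less, 0 to 1 without any 1 replicate, 34 with no filter and 23 with median-of-ratios scaling. Other counts of genes called that moved by over 1.5 times were those for 7aaRAE against naive (8097 to 5306 with a mean of at least 5 RPKM, where fewer genes are tested), anti-PD-1 against vehicle (2244 to 1355 without anti-PD-1 replicate 2), the combination against anti-PD-1 (4, with 0 to 26 over the alternatives), its interaction term (0 to 3 without combination replicate 2), and in U87-MG 7aaRAE against vehicle (1 to 32 with only these groups fitted) and 7aaRGD against vehicle and against 7aaRAE (0 to 2 and 0 to 3 without 1 of the unnumbered 7aaRGD samples). Depth is unknown, and members under the filter carry no test.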
